A study of Mus musculus with 4 samples.

Results

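Liver transcripts were compared between 24 and 6 weeks of an atherogenic diet, each measured as a ratio to chow. The 2 arrays used belong to a study of 4 two-colour arrays, which covers the plain diet and a high-fat form of it at both durations in male mice of the inbred strain C57Bl/6J. On every array Cy5 marked liver RNA from the diet and Cy3 marked liver RNA from chow. No array had its dyes swapped. On the 24-week array the labels give chow for the same 24 weeks, and on the 6-week array they give chow with no duration. The composition of the diets, the age of the mice, the number of livers behind an RNA and whether both arrays used the same chow RNA could not be found in the labels. No transgene or deletion is named for any group.

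A gene was included if at least 1 probe naming it alone had a value on both arrays, and its value is the mean over such probes. This gave 13930 genes of 13954 named by single-gene probes in the series. All values are log2 ratios of diet over chow, so 0 is the level in chow-fed liver, and a difference is the ratio at 24 weeks minus the ratio at 6 weeks. The deposited logarithms were read as base 10, an inference from their spread, because the base is not stated, and every fold below rests on it. The direction of the ratios was taken from the dyes. Each side has 1 array, so there is no replicate error, no test was possible, and the differences below are those between 2 RNA pairs. Because each time has its own chow channel, a difference in the diet-fed livers and one in the chow-fed livers cannot be told apart. The tissue is bulk liver, so a change in the number of cells of a type and a change in RNA per cell cannot be told apart either. Ratios carry no absolute level, so the identity of the tissue could not be checked by the abundance of liver markers. Two-colour ratios of single arrays can also carry dye preferences of a probe, which were not tested.

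Atherogenic diets for mice combine cholesterol with fat and usually with a bile salt, and the liver takes up much of that load. The liver answers sterol and bile acid loading by lowering its own sterol and bile acid synthesis, while bile acid stress and lipid in macrophages recruit leukocytes through chemokines. With time, stellate cells and other fibroblasts lay down collagen and bile duct epithelium expands, the textbook course of dietary steatohepatitis.

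Fewer genes stood 2-fold or more from chow at 24 than at 6 weeks. The 6-week array had 590 genes at least 2-fold above chow (4.24% of genes measured) and 236 at least 2-fold below (1.69%), against 294 above (2.11%) and 180 below (1.29%) at 24 weeks. Of the genes 2-fold above chow at 6 weeks, 148 (25.1%) were also 2-fold above at 24 weeks, and these 148 made up 50.3% of the 24-week genes. Below chow, 94 genes met the limit at both times, 39.8% of the 6-week genes and 52.2% of the 24-week genes. The spread of the probe ratios was also wider at 6 weeks, with an SD over probes of 0.53 against 0.46 at 24 weeks. The SD is a property of each array, and its part in these counts was tested only by scaling both arrays to a common spread, which gave 481 genes above and 182 below chow at 6 weeks and 370 above and 231 below at 24 weeks. With that scaling, genes below chow were more numerous at 24 weeks, so their order depends on the spread.

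Between the times, 101 genes were at least 2-fold higher at 24 weeks (0.725% of genes measured) and 150 were at least 2-fold lower (1.08%), so 1.8% of genes differed by that much in either direction. The median difference over all genes was 0.02, with quartiles of -0.19 and 0.21, and 52.5% of genes had a difference above 0. The counts of every list below are to be read beside these shares. Of the 150 genes that were lower, 97 had been 2-fold above chow at 6 weeks, 25 were 2-fold below chow at 24 weeks and 28 were neither. Of the 101 that were higher, 26 had been 2-fold below chow at 6 weeks, 40 were 2-fold above it at 24 weeks and 35 were neither. No gene went from 2-fold on one side of chow to 2-fold on the other. As a guide to measurement scatter, different probes of the same gene had a pooled SD of 0.33 for the difference, over 2853 genes with several probes. For the ratios within an array this SD was 0.47 at 6 weeks and 0.42 at 24 weeks. The SD of the difference over all genes was 0.37, little above that between probes of a gene. In 1418 of the 2853 genes the probes lay on opposite sides of 0. The other 11077 genes had 1 probe, so for most genes no second probe checks the value.

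**Figure D1:**
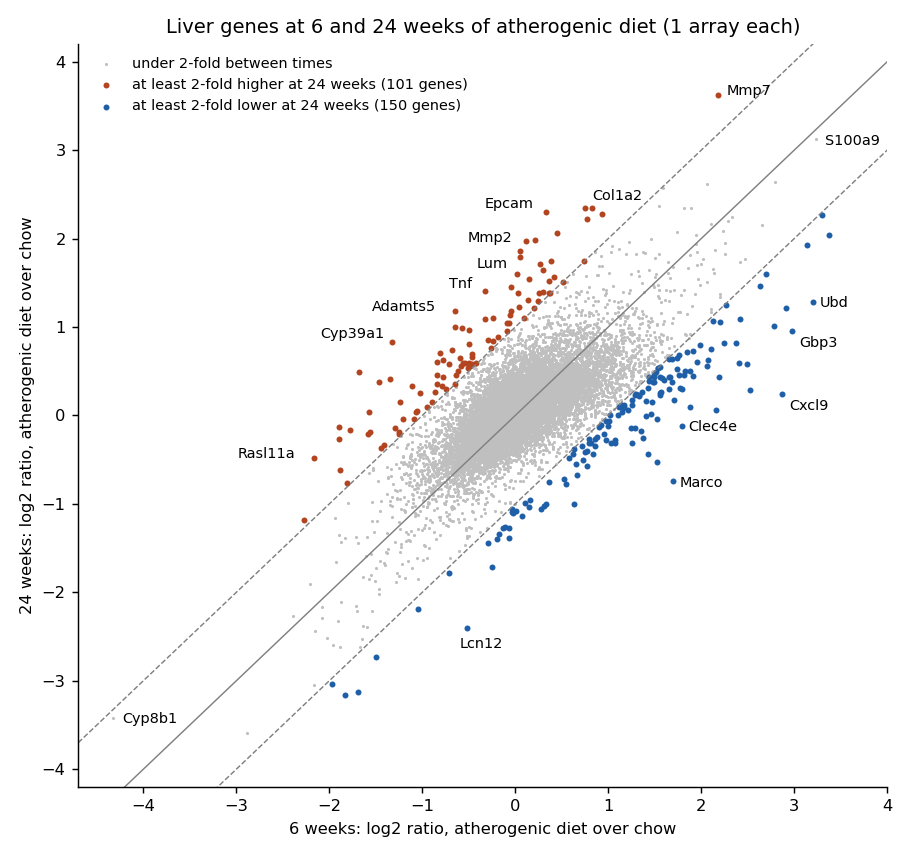
Log2 ratio of atherogenic diet over chow for each of 13930 genes on the 6-week array (x axis) and the 24-week array (y axis), with 1 array per time. The solid line marks equal ratios and the dashed lines a 2-fold difference between the times; the 101 coloured points above the upper line are the genes higher at 24 weeks, and the 150 below the lower line are the genes lower at 24 weeks.

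Among the 12 named genes with the largest lower values at 24 weeks were the interferon-induced genes Cxcl9, Gbp3 and Ubd and the macrophage genes Marco and Clec4e. The others, B3gntl1, Rttn, Gpr173, Kbtbd12, Lcn12, Spink1 and Rbfox2, belong to neither group. At 24 weeks Kbtbd12, at 0.58, and Spink1, at 0.59, lay near an over-represented value of that array, described with the hepatocyte genes below. They were within 0.003 of it on the deposited scale but not at it, and whether their differences are affected was not tested. Cxcl9, the interferon-gamma-induced chemokine that attracts T cells, had the lowest difference of all genes measured. Its log2 ratio was 2.86 at 6 weeks and 0.24 at 24 weeks, a difference of -2.62 or 6.15-fold, and its probes gave -2.77 and -2.47. On the high-fat form of the diet Cxcl9 stood at 1.90 at 6 weeks and 0.54 at 24 weeks. Cxcl9 was thus above chow on all 4 arrays and close to chow on the plain diet at 24 weeks.

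The interferon-induced genes as a list had a median ratio of 0.60 at 6 weeks and 0.41 at 24 weeks, and a median difference of -0.23. Of 40 measured members 4 were at least 2-fold lower at 24 weeks and 1 at least 2-fold higher, and 28 lay below 0. Of all genes, 1.08% were that much lower and 0.725% that much higher. At 6 weeks 11 members were at least 2-fold above chow, and at 24 weeks 3 were, against 4.24% and 2.11% of all genes. The guanylate-binding proteins, GTPases that act against microbes inside cells, made up most of the lower group. Gbp3 was at 2.97 at 6 weeks and 0.96 at 24 weeks, a difference of -2.02, against 0.90 and 0.42 on the high-fat diet. Gbp2 was at 2.07 and 0.56, a difference of -1.50, and Gbp4 at 1.25 and -0.15, a difference of -1.39. The immunity-related GTPase Tgtp1 was at 2.78 and 1.01, a difference of -1.77, against 1.97 and 0.91 on the high-fat diet. Each of these 4 genes was lower at 24 than at 6 weeks on both diets. The whole interferon-induced list had a median difference of -0.05 on the high-fat diet. Of the members short of 2-fold, the GTPase Ifi47 differed by -0.95, the nucleic acid sensor Oas3 by -0.94 as the mean of probes at -1.38 and -0.49, and the antiviral GTPase Mx1 by -0.85.

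Igtp, another immunity-related GTPase, went the other way. It was at -0.33 at 6 weeks and 1.09 at 24 weeks, a difference of 1.42, and it was measured by 1 probe. With high fat Igtp was at 0.53 and 0.86.

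Promoters of 5 of these genes are shown because genes of the same family stood on opposite sides between the times. Sequences are the 250 bases before the annotated start, from RefSeq on GRCm38.p6, read 5′ to 3′ on the gene's strand. Capitals mark matches to the gamma-activated site, searched as TTCNNNGAA, or to the interferon-stimulated response element, searched as GAAA, then 2 bases of any kind, then GAAA, each on both strands.
Gbp2 (chr3:142620413-142620662, plus strand): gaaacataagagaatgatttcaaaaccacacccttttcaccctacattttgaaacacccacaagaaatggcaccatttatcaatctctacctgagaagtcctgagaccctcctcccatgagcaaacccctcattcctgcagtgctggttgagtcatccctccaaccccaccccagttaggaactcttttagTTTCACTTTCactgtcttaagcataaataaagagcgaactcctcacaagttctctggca
Gbp3 (chr3:142559794-142560043, plus strand): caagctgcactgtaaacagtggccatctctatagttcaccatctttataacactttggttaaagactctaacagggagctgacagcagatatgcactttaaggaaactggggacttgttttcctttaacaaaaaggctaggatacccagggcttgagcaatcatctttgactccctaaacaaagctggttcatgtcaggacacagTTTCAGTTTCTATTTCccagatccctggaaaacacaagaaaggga
Tgtp1 (chr11:48992247-48992496, minus strand): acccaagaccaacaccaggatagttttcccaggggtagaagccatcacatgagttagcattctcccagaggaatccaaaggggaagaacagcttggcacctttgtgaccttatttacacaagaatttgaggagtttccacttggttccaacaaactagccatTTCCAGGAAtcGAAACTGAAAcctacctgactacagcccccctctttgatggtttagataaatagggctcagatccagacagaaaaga
Igtp (chr11:58199306-58199555, plus strand): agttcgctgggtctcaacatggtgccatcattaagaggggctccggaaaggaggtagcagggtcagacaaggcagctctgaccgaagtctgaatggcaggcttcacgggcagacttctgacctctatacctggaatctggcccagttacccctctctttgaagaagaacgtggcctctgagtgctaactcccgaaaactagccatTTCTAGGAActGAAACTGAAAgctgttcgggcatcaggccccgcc
Cxcl10 (chr5:92348890-92349139, minus strand): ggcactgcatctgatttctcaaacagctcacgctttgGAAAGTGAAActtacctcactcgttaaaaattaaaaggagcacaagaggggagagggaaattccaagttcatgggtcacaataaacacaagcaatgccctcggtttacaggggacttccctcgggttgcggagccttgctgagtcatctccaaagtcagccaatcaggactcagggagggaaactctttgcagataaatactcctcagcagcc
Tgtp1, lower at 24 weeks, and Igtp, higher, both held a gamma-activated site upstream of a response element and close to it, starting 88 and 77 bases before the start in Tgtp1 and 45 and 34 bases in Igtp. Gbp2 held 1 response element and Gbp3 held 2 that overlap, and neither held the other motif. A second annotated start of Gbp3, and the windows of Cxcl9 and of the ubiquitin-like gene Ubd, held neither motif in these letters. Of the 32 list members found in the promoter table, 16 (50%) held the response element and 10 (31.2%) the gamma-activated site. Among all 27025 genes of the table the shares were 3.46% and 8.13%. Of the 4 members at least 2-fold lower at 24 weeks, 3 had a promoter in the table and all 3 held the response element, as did 13 of the other 29 (44.8%). A match is a description of the letters and not evidence of binding.

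Of 46 measured chemokine, cytokine and adhesion genes 8 were at least 2-fold lower at 24 weeks and 1 was at least 2-fold higher. The shares of all genes were 1.08% and 0.725%. Below 0 lay 31 of them and above it 15, and the median difference was -0.25, against -0.003 on the high-fat diet. The monocyte attractant Ccl2 was at 1.67 at 6 weeks and 0.44 at 24 weeks, a difference of -1.23, and at 1.57 and 0.36 on the high-fat diet. Ccl8, a related monocyte chemokine, was at 1.80 and 0.30, a difference of -1.50, and Ccl5, which attracts T cells, was at 2.42 and 1.09, a difference of -1.33. All 3 were above chow at both times.

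Other members ended below chow. Cxcl10, which shares its receptor with Cxcl9, was at 0.28 at 6 weeks and -1.06 at 24 weeks, and the B cell attractant Cxcl13 was at 0.15 and -1.03, with probes at -1.22 and -1.15 for the difference. Il1b, the inflammasome-processed cytokine, was at 0.74 and -0.42, a difference of -1.16. The 1 member at least 2-fold higher was Tnf, the macrophage cytokine, at -0.33 at 6 weeks and 1.40 at 24 weeks. Its difference of 1.73 was the mean of probes at 1.37 and 2.09, and on the high-fat diet it was at 0.11 at both times. Tgfb1, the cytokine that drives matrix production, was at -0.08 and 0.84, a difference of 0.91, against 0.22 and 1.04 on the high-fat diet.

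Resident and recruited macrophage markers differed among themselves. Marco, a scavenger receptor of Kupffer cells, the resident macrophages of the liver, had the second lowest difference of all genes, with 1.69 at 6 weeks and -0.75 at 24 weeks (difference -2.44). It was at 0.52 and -0.60 on the high-fat diet. Marco was the only 1 of 13 measured Kupffer cell markers to reach 2-fold, but 11 of the 13 lay below 0, and the median difference was -0.23. The transcription factor Spic differed by -0.76, the lectin Clec4f by -0.55 and the apoptosis inhibitor Cd5l by -0.52. The complement component C1qa was higher instead, at 1.01 and 1.61, but its partner chain C1qb was lower, at 2.26 and 1.83. Each was measured by 1 probe.

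Markers of infiltrating and lipid-associated macrophages had a median ratio of 0.98 at 6 weeks and 0.84 at 24 weeks. The median of their differences was -0.01, a value whose sign depends on the processing. Of 29 measured members 5 were at least 2-fold lower and none was at least 2-fold higher, against 1.08% and 0.725% of all genes. The C-type lectins, which sense fungi and dead cells, made up most of the 5. Clec4e was at 1.79 at 6 weeks and -0.12 at 24 weeks, Clec4d at 2.07 and 0.63 and Clec7a at 3.37 and 2.04, with differences of -1.90, -1.44 and -1.34. Scaling the arrays to a common spread put Clec7a at -0.89, short of 2-fold. The leukocyte surface gene Cd52 was at 2.25 and 0.82, and Ms4a7 at 1.07 and -0.28. The members with the largest higher values at 24 weeks were the lipase Lpl at 1.55 and 2.37, the tetraspanin Cd9 at 1.82 and 2.35 and the glycoprotein Gpnmb at 1.38 and 1.85. Over the list, 14 members lay above 0 and 15 below. The general macrophage markers Cd68, at 0.84 and 0.75, and Lyz1, at 2.23 and 2.09, were within 0.15 of each other between the times. Of the list, 14 members were 2-fold above chow at 6 weeks and 12 at 24 weeks, against 4.24% and 2.11% of all genes.

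**Figure D2:**
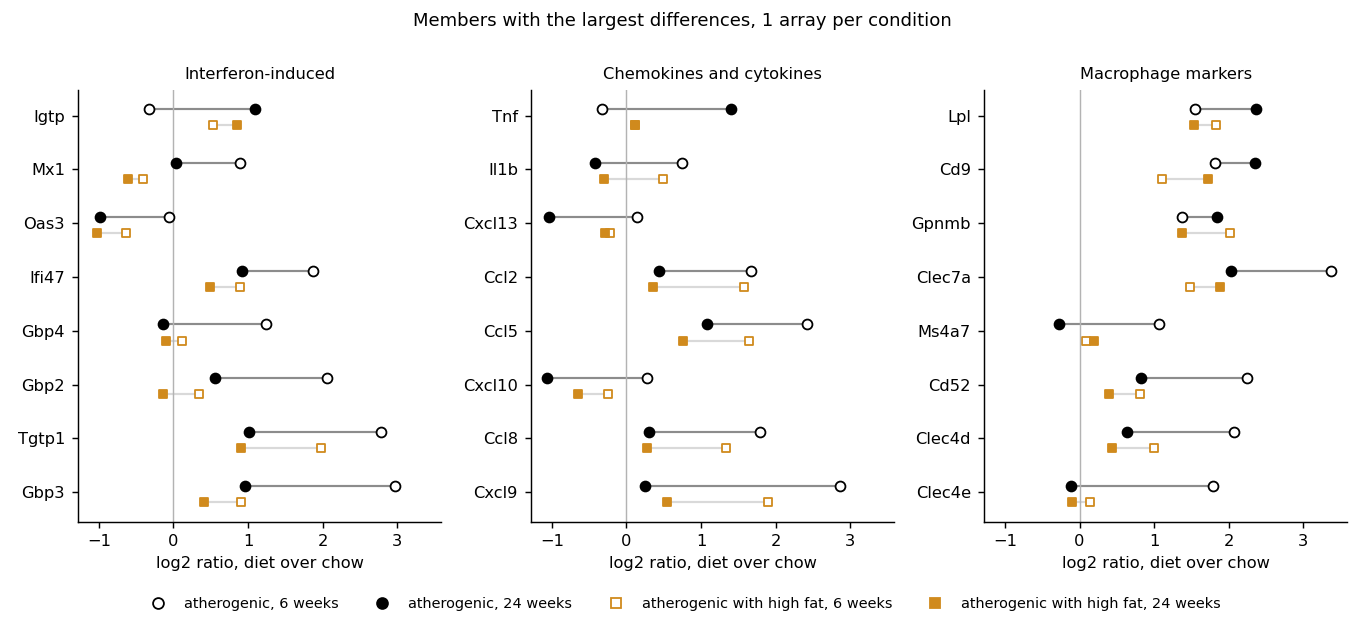
Log2 ratio of diet over chow for the 8 measured members with the largest difference in the interferon-induced, chemokine and cytokine, and macrophage lists. Circles are the plain atherogenic diet and squares the high-fat form, open at 6 weeks and filled at 24 weeks, 1 array each; Cxcl9 moves from 2.86 to 0.24 and Tnf from -0.33 to 1.40.

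Neutrophil markers had a median difference of -0.07 over 15 measured genes, with 7 above 0 and 8 below, and the sign of the median depends on the processing. The calprotectin subunits S100a8 and S100a9, which neutrophils carry in bulk, were at 2.80 and 3.24 at 6 weeks and at 2.64 and 3.12 at 24 weeks. With high fat the same genes went from 1.26 and 1.48 at 6 weeks to 2.64 and 2.98 at 24 weeks. The granule gene Ngp was at 0.38 and 1.75 on the plain diet and the collagenase Mmp8 at 0.10 and 1.11, and they were the 2 members at least 2-fold higher, with none at least 2-fold lower. The surface marker Ly6g was at 0.82 and 0.29 and the gelatinase Mmp9 at 0.45 and 0.15. Lcn2, which binds the iron carriers of bacteria, was at 2.33 and 2.25. For S100a8, S100a9 and Lcn2 the sign of these small differences turns with the scaling of the arrays.

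Of 26 measured lymphocyte and natural killer markers 3 were at least 2-fold lower and none higher, with a median difference of -0.08. Among all genes 1.08% were that much lower. The T cell receptor subunit Cd3d was at 1.74 at 6 weeks and 0.52 at 24 weeks, and the killer cell receptor Klrd1 at 1.69 and 0.64. Thy1, a glycoprotein of T cells and fibroblasts, was at -1.83 and -3.17, below chow on all 4 arrays. Cd3g, another T cell receptor subunit, was at 0.08 and -0.22, so not every T cell gene followed Cd3d. Genes of antigen presentation on MHC class II were lower in 11 of 15 members, with a median difference of -0.18. The peptide loader H2-DMb1 was at 2.20 and 1.06 and was the 1 member at least 2-fold lower, and the class II chain H2-Aa was at 2.65 and 2.15. The median moved to -0.43 over genes with concordant probes and to -0.11 with arrays scaled to a common spread, which put H2-Aa at -0.10 and H2-DMb1 at -0.88. At 6 weeks 8 of the 15 were 2-fold above chow, and at 24 weeks 6 were, against 4.24% and 2.11% of all genes.

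Matrix genes were higher at 24 weeks. Of 45 measured collagens and matrix proteins 40 lay above 0, 6 were at least 2-fold higher and none was at least 2-fold lower, with a median difference of 0.34. Of all genes, 52.5% lay above 0 and 0.725% were at least 2-fold higher. At 6 weeks none of the 45 was 2-fold above chow, and at 24 weeks 9 were, against 4.24% and 2.11% of all genes. The fibril collagen chain Col1a2 was at 0.75 at 6 weeks and 2.35 at 24 weeks, a difference of 1.60 or 3.03-fold. On the high-fat diet Col1a2 was already at 1.82 at 6 weeks and was at 2.08 at 24 weeks. The minor fibril chains Col5a2 and Col5a1 differed by the same 1.35, from 0.93 to 2.28 and from -0.24 to 1.11. Col5a2 on the high-fat diet was at 1.88 and 1.62, and Col5a1 at -0.37 and -0.36.

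Lumican (Lum), a proteoglycan that spaces collagen fibrils, was at 0.05 at 6 weeks and 1.79 at 24 weeks, a difference of 1.74. On the high-fat diet it was at 0.65 and 0.48. Mgp, the matrix Gla protein that inhibits calcification, was at 0.03 and 1.39. The basement membrane chain Col4a5 differed by 1.09, as the mean of probes at 0.56 and 1.61. The elastic fibre protein Fbln5 differed by 0.91 and the collagen-binding protein Sparc by 0.88.

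Col1a1, the partner chain of Col1a2, had 5 probes that disagreed. Their differences ran from -0.57 to 0.99, with a mean of 0.22 and a median of -0.18, so its direction depends on how probes are combined. The 3 probes of Col3a1, the other large fibril chain, lay between 0.14 and 0.85 with a mean of 0.56. For 5 of the 45 genes at least 1 probe lay at or near a log2 value of 0.59 that is over-represented on the 24-week array. It is described with the hepatocyte genes below.

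Matrix proteases included some of the highest values on the 24-week array. Mmp7, the epithelial metalloproteinase matrilysin, was at 2.18 at 6 weeks and 3.62 at 24 weeks, a difference of 1.44. On the high-fat diet it was at 3.19 and 2.79. Mmp2, the gelatinase made by fibroblasts, was near chow at 0.11 at 6 weeks and at 1.98 at 24 weeks, a difference of 1.87. Adamts5, an aggrecan-cleaving protease outside the list, was at -0.65 and 1.18, a difference of 1.83. Mmp14, which activates Mmp2, differed by 0.70, and the inhibitors Timp2 and Timp1 by 0.58 and 0.23. Over the 26 measured genes of the list 3 were at least 2-fold higher, none was at least 2-fold lower, and 21 lay above 0 with a median of 0.24.

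Markers of stellate cells and myofibroblasts, the cells that make most liver matrix, had a median difference of 0.05 in 23 genes, and its sign changes with the processing. The contractile marker Acta2 was at -0.25 at 6 weeks and 0.30 at 24 weeks, and the growth factor Tgfb2 at 0.76 and 1.57. Thy1, which is also in this list, was the 1 member at least 2-fold apart, and it was lower. Endothelial markers had a median difference of 0.11 in 19 genes, with none 2-fold apart, led by the receptor Tek at 0.51.

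Bile duct cell markers had the highest median difference of all lists, 0.54 over 16 measured genes, from a median ratio of 0.29 at 6 weeks to 0.93 at 24 weeks. The matching difference on the high-fat diet was 0.24. Of the 16 genes 4 were at least 2-fold higher, none was at least 2-fold lower and 12 (75%) lay above 0. Of all genes, 0.725% were that much higher and 52.5% lay above 0. The other 4 markers lay below 0, the lowest at -0.17. They are not among the markers named below, most of which were taken by size. Epcam, the epithelial adhesion molecule of ducts and progenitors, was at 0.33 and 2.30, a difference of 1.97 or 3.92-fold, against 0.44 and 0.90 on the high-fat diet. Cd24a, a surface protein of duct and progenitor cells, was at 0.21 and 1.98, against 0.55 and 0.69 on the high-fat diet. Bicc1, an RNA-binding protein of ducts, was at 0.45 and 2.06, and the mucin Muc1 at 0.24 and 1.30. The duct-enriched tetraspanin Tspan8 was already at 2.06 at 6 weeks and was at 2.61 at 24 weeks.

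The duct cytokeratin Krt19 was at 0.52 at 6 weeks and 0.91 at 24 weeks, a difference of 0.39. Prom1, a progenitor marker, was at -0.27 and 0.69, and the tight junction gene Cldn7 at -0.69 and -0.02. Each of these markers was measured by 1 probe. Among fetal liver and tumour-associated genes the secreted alpha-fetoprotein Afp was at 1.27 and 0.44, and the surface gene Ly6d at 3.14 and 1.92, a difference of -1.21 that came to -0.80 with scaled arrays, so not all genes of immature epithelium stood higher. Sftpd, a collectin known from lung, was at 0.05 and 1.86.

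**Figure D3:**
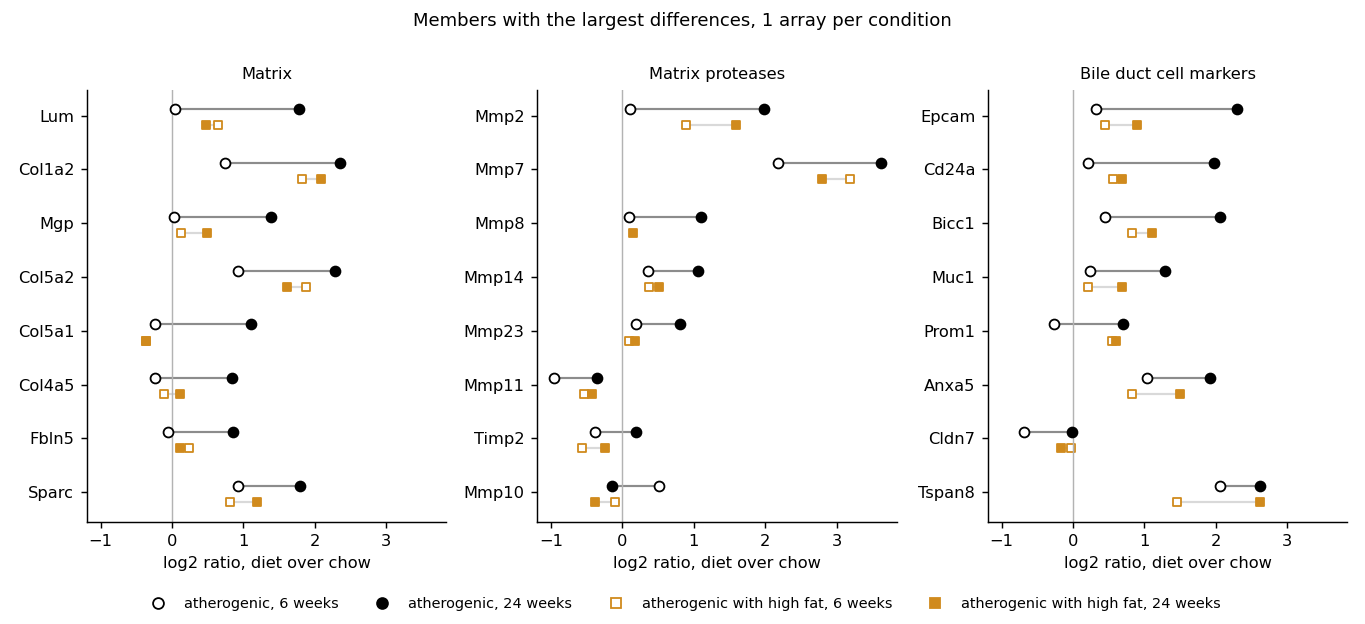
Log2 ratio of diet over chow for the 8 measured members with the largest difference among matrix genes, matrix proteases and bile duct cell markers. Circles are the plain atherogenic diet and squares the high-fat form, open at 6 weeks and filled at 24 weeks, 1 array each; Lum, Mmp2 and Epcam lie between 0.05 and 0.33 at 6 weeks and between 1.79 and 2.30 at 24 weeks on the plain diet, and Mmp8 has no 6-week high-fat value.

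Drug-metabolising cytochromes stood below chow at 6 weeks and near it at 24 weeks. Of 24 measured genes of families 1 to 3, 20 lay above 0 and 4 were at least 2-fold higher, with a median ratio of -0.52 at 6 weeks, 0.00 at 24 weeks and a median difference of 0.50. Of all genes, 52.5% lay above 0 and 0.725% were at least 2-fold higher. On the high-fat diet the median difference of the cytochromes was 0.21. Cyp2b9, a female-biased family member, was at -0.78 and 0.63, and at 1.49 and 1.74 on the high-fat diet. Cyp3a13 was at -0.60 and 0.65, Cyp2c70, which makes the muricholic acids of mice, at -0.47 and 0.69, and Cyp3a25 at -0.89 and 0.16. Cyp2a5, a coumarin hydroxylase, was above chow at both times, at 0.67 and 1.39.

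Conjugating enzymes and carboxylesterases followed with a median difference of 0.31 in 26 genes, of which 19 lay above 0. Ces1g, a hepatic lipid and ester hydrolase, was at -0.78 at 6 weeks and 0.44 at 24 weeks and was the 1 member past 2-fold. The bilirubin conjugase Ugt1a1 was at -1.53 and -0.60 and the sulfotransferase Sult1a1 at -1.15 and -0.33, so both stayed below chow. Ces1d was at -1.94 and -1.16. Female-biased liver genes had a median difference of 0.22 with 13 of 16 above 0. Male-biased genes had a median of -0.09 in 13 genes, with the fatty acid elongase Elovl3 at -2.17 and -3.05.

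Cyp39a1, the hydroxylase of 24-hydroxycholesterol in bile acid synthesis, had the highest difference of all genes outside the odorant receptors. It is not a member of the bile acid list. Cyp39a1 was at -1.32 at 6 weeks and 0.83 at 24 weeks, a difference of 2.16 or 4.46-fold, against 0.76 and 0.68 on the high-fat diet. Cyp8b1, the 12-alpha hydroxylase that sets the share of cholic acid, was far below chow at both times, at -4.33 and -3.42, and at -2.04 and -2.49 on the high-fat diet. Its difference of 0.90 came to 0.26 with the arrays scaled to a common spread. Cyp27a1, which starts the alternative pathway, was at -0.83 and -0.05. Cyp7b1, the next enzyme of that pathway, stayed at -1.88 and -2.11, and Cyp7a1, which sets the rate of the classical pathway, at -0.57 and -0.65.

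Several bile acid transporters stood below chow. The uptake carrier Slc10a1 was at -1.90 at 6 weeks and -1.35 at 24 weeks, with differences of 0.31 to 0.76 over its 3 probes. Slco1b2, another uptake carrier, was at -1.13 and -0.44. The basolateral exporter Abcc3 was at -0.25 and 0.48, and Slco1a1 was at -1.71 and -2.22. Over 24 measured bile acid genes the median difference was 0.30, 17 lay above 0 and none was 2-fold apart in either direction.

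The 17 measured cholesterol synthesis genes had a median below chow at both times, -0.48 at 6 weeks and -0.31 at 24 weeks. At least 2-fold below chow were 6 of them at 6 weeks and 3 at 24 weeks, and none was 2-fold above. Mvd, at 0.70 and 0.43, and Cyp51, at 0.62 and 0.36, stood above chow at both times (picked out after their values were seen). The median difference of the 17 genes, -0.09, is negative although their median ratio is less negative at 24 weeks, because medians were taken separately. Fdps, which makes farnesyl diphosphate, was at -1.81 and -0.77 and was the 1 member 2-fold apart. Dhcr7, the last step to cholesterol, was at -1.55 and -1.81, Idi1 at -1.22 and -1.68, and the squalene epoxidase Sqle at -0.44 and -0.84.

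Among sterol efflux genes the canalicular half-transporter Abcg5 was at 0.65 at 6 weeks and 1.34 at 24 weeks, while its partner Abcg8 was at 0.91 at both times. The phospholipid transfer protein Pltp was at -0.73 and 0.23. Npc2, which carries cholesterol out of lysosomes, was at 1.75 and 1.17. The list of 13 genes had a median difference of 0.09.

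Proteins of fatty acid uptake and lipid droplets were lower at 24 weeks in 16 of 21 measured genes, with a median difference of -0.16. At least 2-fold lower were 4 of them and at least 2-fold higher none, against 1.08% and 0.725% of all genes. The intestinal-type fatty acid binding protein Fabp2 was at 1.26 at 6 weeks and -0.31 at 24 weeks, and at 1.62 and 0.66 on the high-fat diet. Cidec, which fuses lipid droplets, was at 0.66 and -0.67, and at 0.70 and 0.02 on the high-fat diet. G0s2, an inhibitor of the droplet lipase, was at -0.06 and -1.39, and at -0.52 and -1.43 on the high-fat diet. These 3 genes were lower at 24 weeks on both diets. The liver fatty acid binding protein Fabp1 was at 0.79 and -0.27 on the plain diet and at -1.09 and -0.87 on the high-fat diet.

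Fatty acid synthesis genes had a median difference of 0.22, with 13 of 17 above 0 and none 2-fold apart, although Scd1 and Elovl3 passed 2-fold with scaled arrays (1.06 and -1.32). The desaturase Scd1 was at 0.19 at 6 weeks and 1.14 at 24 weeks, and the fatty acid synthase Fasn was at 0.30 and 0.27. In fatty acid oxidation the median difference was 0.03 in 30 genes, with the thioesterases Acot1 at -0.20 and -1.40 and Acot2 at 1.23 and 0.24. The peroxisomal thiolase Acaa1b was higher instead, at -0.92 and 0.04. Cyp4a14, a fatty acid hydroxylase controlled by Ppara, was at -1.71 and -1.38, and Ppara itself at -0.53 and -0.37. In lipoprotein genes Apob, the structural protein of VLDL, was at -0.95 and 0.09, and Apoh at 1.91 and 0.73.

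**Figure D4:**
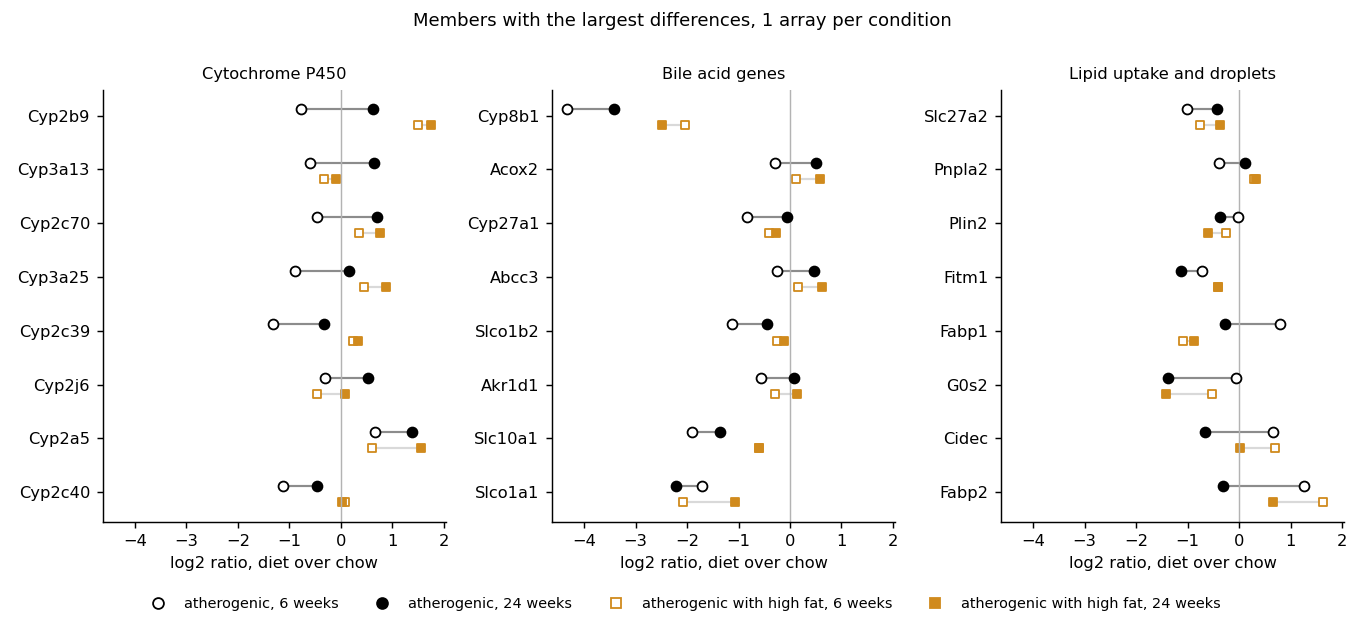
Log2 ratio of diet over chow for the 8 measured members with the largest difference among cytochromes P450, bile acid genes, and fatty acid uptake and droplet genes. Circles are the plain atherogenic diet and squares the high-fat form, open at 6 weeks and filled at 24 weeks, 1 array each; Cyp8b1 lies at -4.33 and -3.42 on the plain diet, and Fabp2 and Cidec go from above chow at 6 weeks to below it at 24 weeks.

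Acute phase proteins, which hepatocytes secrete in inflammation, were higher in 18 of 27 genes, with a median difference of 0.38. The median ratio was 0.17 at 6 weeks and 0.59 at 24 weeks. This 24-week median is itself the over-represented value described with the hepatocyte genes below, at which 1 member lay. Leaving out probes at or near that value gave a median difference of 0.38. The protease inhibitor Serpina3n was at -0.50 and 0.97, the fibrinogen chain Fga at -1.25 and -0.21 and the hyaluronan-binding inhibitor chain Itih3 at -0.27 and 0.76. They were the 3 members at least 2-fold higher, against 0.725% of all genes. Saa2 was at 0.93 and 1.68, Saa3 at 2.26 and 1.95 (a difference whose sign turns with scaling) and Saa1 at -0.25 and -0.27. Hamp, the iron hormone hepcidin, was lower, at 0.85 and 0.03.

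Antioxidant genes were led by the metallothioneins Mt1, at -0.81 at 6 weeks and 0.71 at 24 weeks, and Mt2, at -0.68 and 0.74. They were also higher at 24 weeks on the high-fat diet, where Mt1 went from -0.38 to 0.86 and Mt2 from -0.48 to 0.28. The glutathione transferase Gsta3 was at -1.56 and -0.19, while Gsta1 and Gsta2 were above chow at both times, at 1.30 and 1.83 and at 1.19 and 1.83. Catalase (Cat) was at -0.56 and -0.78. Over 44 measured genes the median difference was 0.11. Closely related transferases and metallothioneins may share hybridisation on such probes, which was not tested.

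Lysosomal genes, which include the cathepsins and proteins that are not proteases, were higher in 19 of 20, with a median difference of 0.32 and none 2-fold apart. The ceramidase Asah1 was at 0.45 at 6 weeks and 1.40 at 24 weeks, the membrane proteins Lamp2 and Lamp1 differed by 0.64 and 0.60, and the cathepsins Ctsb, Ctsl and Ctss by 0.58, 0.51 and 0.45. Cytosolic ribosomal protein genes were lower in 54 of 68, with a median ratio of 0.54 at 6 weeks and 0.31 at 24 weeks. Their median difference was -0.26, and on the high-fat diet it was 0.22. At 6 weeks 10 of these genes were 2-fold above chow, among them Rpl32 at 1.57 and Rpl41 at 1.14, and at 24 weeks none was. Respiratory chain and ATP synthase genes had a median difference of -0.16 in 59 genes and -0.26 on the high-fat diet. The complex I subunits Ndufb9, at 0.52 and -0.71, and Ndufa4, at 0.72 and -0.50, were the 2 members 2-fold lower.

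**Figure D5:**
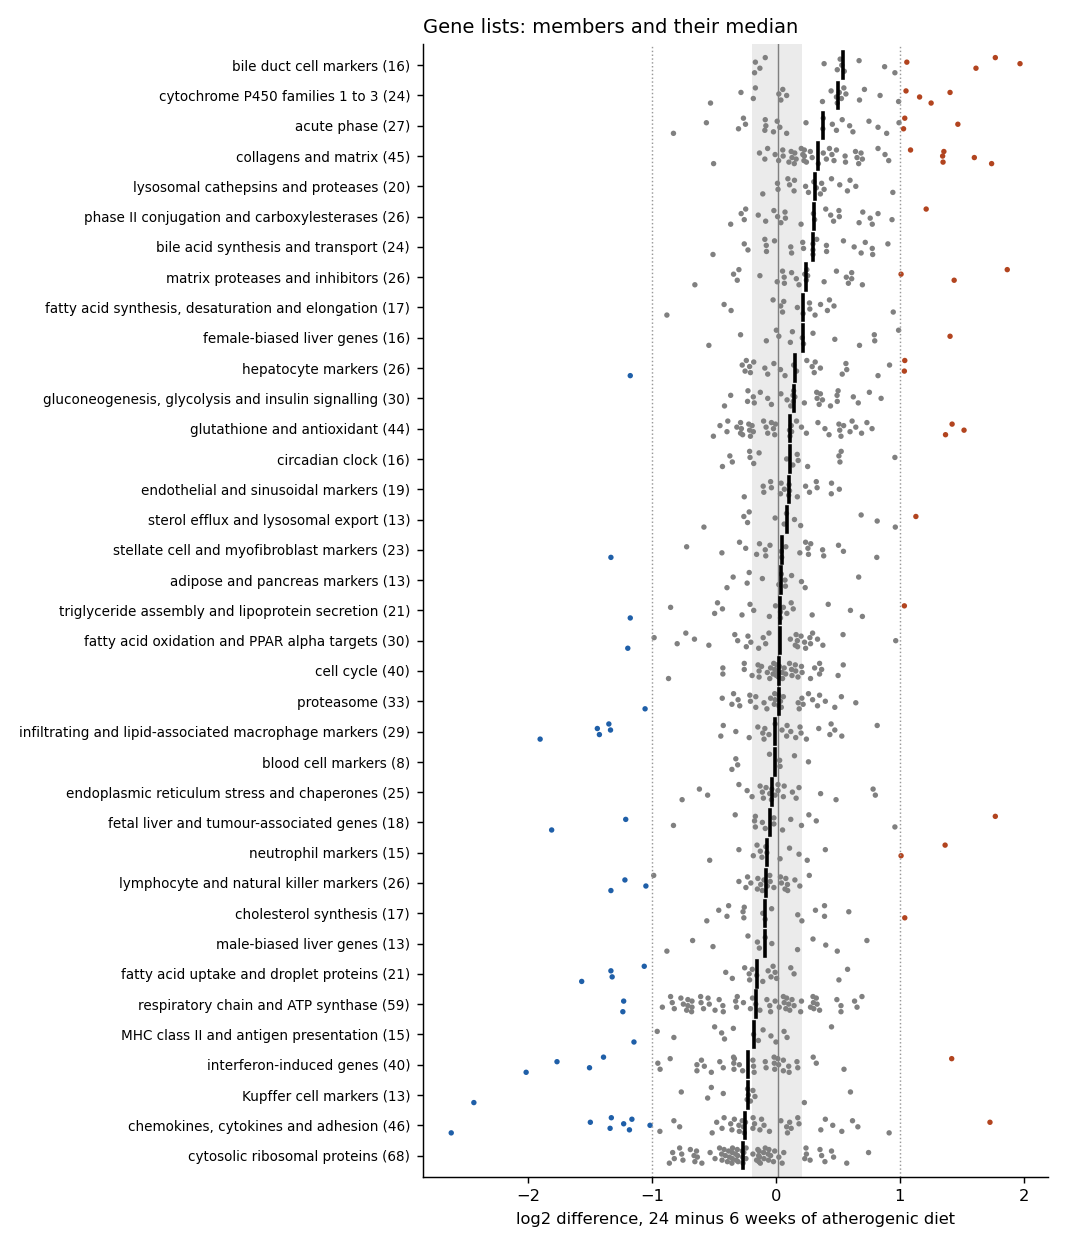
Log2 difference of 24 minus 6 weeks for each measured member of 37 gene lists, ordered by their median (black tick) with the number of members in parentheses. The grey band is the interquartile range of all 13930 genes, the grey line is their median and the dotted lines mark a 2-fold difference; the medians run from 0.54 for bile duct cell markers to -0.26 for ribosomal proteins.

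Hepatocyte markers, the background of the whole tissue, need a separate reading. Their median difference was 0.15 in 26 genes, with Fga and Apob at least 2-fold higher and Apoh at least 2-fold lower. The amino acid enzyme Tat was at -1.53 and -0.62 and prothrombin (F2) at -1.09 and -0.52. For 8 of the 26 genes, however, at least 1 probe lay on the 24-week array within 0.003, on the deposited scale, of a single value that is 0.59 on the log2 scale. That value held 63 probes, against a median of 30 in the 31 neighbouring values. Alb, Cyp2e1, Apoe and Gpx1 have probes at this value or within 0.003 of it. So does Abca1, the sterol exporter, at -0.54 at 6 weeks and 0.59 at 24 weeks. Alb had probes at -0.15 and at 1.25 for the difference. The size of the differences of genes at the value cannot be read, and for probes only near it this was not tested. What produces the shared value was not tested either.

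Genes were also sorted by their course. Of the genes measured, 55 (0.395%) were 2-fold above chow at 6 weeks and within 1.2-fold of it at 24 weeks. In this group Cxcl9 and Clec4e stood with Rttn, a centriole protein, at 2.16 and 0.06, and the splicing factor Rbfox2, at 1.88 and 0.10. Another 23 genes (0.165%) were 2-fold below chow at 6 weeks and near it at 24 weeks. They include the urea transporter Slc14a2, at -1.78 and -0.17, and the homeobox gene Hoxc5, at -1.89 and -0.13. Near chow at 6 weeks and 2-fold above at 24 weeks were 25 genes (0.179%). They include Mmp2, Lum, Cd24a, Sftpd and the taurine transporter Slc6a6, at 0.01 and 1.60. Slc6a6 was at 0.26 and 1.01 on the high-fat diet. Near chow at 6 weeks and 2-fold below at 24 weeks were 15 genes (0.108%). They include G0s2, Acot1 and the prostaglandin synthase Ptges, at -0.25 and -1.71.

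Other genes held their place. There were 71 genes (0.51%) at least 2-fold above chow at both times and within 1.2-fold between them, and 43 such genes (0.309%) below chow. The interleukin-1 receptor antagonist Il1rn, at 1.37 and 1.10, the chromatin protein Hmgb2, at 1.95 and 1.70, and the macrophage elastase Mmp12, at 1.33 and 1.57, were at the edge of that band above chow. Dhcr7 and the carboxylesterase Ces3a, at -1.23 and -1.49, were at its edge below chow.

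The remaining large differences belong to genes with 1 probe each, most of them in no list here. B3gntl1, a glycosyltransferase-like gene, was at 2.52 at 6 weeks and 0.28 at 24 weeks, and the orphan receptor Gpr173 at 1.52 and -0.52. Ubd, the interferon-induced ubiquitin-like modifier, was at 3.20 and 1.28, a difference of -1.92. Spink1 and Kbtbd12, at 2.41 and 2.49 at 6 weeks, were at 0.59 and 0.58 at 24 weeks, near the over-represented value but not at it. The lipocalin Lcn12 was at -0.52 and -2.41. Among the higher genes Nepro was at -1.47 and 0.38, the pleckstrin-like Plek2 at -1.35 and 0.41 and the small GTPase Rasl11a at -2.17 and -0.48.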

How the data were processed

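Liver RNA was measured on AceGene Mouse Oligo Chip 30K arrays, with Cy5 for the diet and Cy3 for the chow RNA, per the labels. The design text names an Agilent G2505B scanner, GenePix Pro 4.1 for image analysis and LOWESS normalization in GeneSpring 7.2. It states no background correction or spot filter. What the authors deposited are signed log values of diet over chow, taken as log10 by inference from their spread and converted here to log2. Scale, centring and direction beyond the dyes are not stated for the values. The median deposited values were -0.019 at 6 weeks and -0.005 at 24 weeks, and -0.019 corresponds to -0.06 on the log2 scale. No spot intensities were used here, so signal over background is unknown. Precision is limited by having 1 array a side.

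Of 28845 probes 28806 had a value on the 6-week array and 28764 on the 24-week array, 28737 on both, and 17592 of these name 1 gene. In the platform annotation 17637 probes had 1 symbol, 64 several and 11144 were not listed. Symbols were brought up to date with RefSeq (GRCm38.p6) by gene identifier, and 252 probes with 1 symbol did not match. Probes of a gene were averaged, with no further centring or scaling. No test was made, since each condition has 1 array; lists are described by counts at 2-fold and medians beside those of all genes. Promoters came from a RefSeq table of GRCm38.p6.

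Genes named are the 12 largest differences in each direction among genes with settled symbols whose probes lay on 1 side (odorant receptor, hair keratin and predicted genes passed over), up to 5 per course, up to 8 members per list, and a set named whatever its values, covering sterols, lipids, redox, inflammation and fibrosis. The members and lists were chosen with earlier results of these data known. Alternatives were centring, scaling, the probe median, genes with concordant probes, probes measured on all 4 arrays, leaving out probes at the most repeated values, other log bases, other thresholds and a limit of 16-fold on ratios. Centring by probe position and leaving out probes within 0.003 of the over-represented 24-week value were chosen after seeing the data. Python 3.11.15 with pandas 2.3.3, numpy 2.4.6 and matplotlib 3.10.9 was used, and the calculations were tested on simulated data.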

Additional observations from a re-analysis of the deposited data

Results flagged for a closer look

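Thy1, a glycoprotein of T cells and fibroblasts, took opposite courses on the 2 diets. On the plain atherogenic diet it was lower at 24 than at 6 weeks by a log2 difference of -1.33 (-1.83 and -3.17 over chow), and on the high-fat form it was higher by 0.69 (-3.81 and -3.12). Each value is 1 probe on 1 array, and the difference between the diets was not tested.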

How the results depend on the processing

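Medians of the lists given by value in this paragraph kept their sign in all alternatives run. Counts by fold followed the threshold, with 643 genes higher and 714 lower at 1.5-fold and 20 higher and 18 lower at 3-fold. They followed the log base even more, since 0 genes were higher and 0 lower with the values read as base 2, and 0 higher and 2 lower as natural logarithms. Other settings gave 84 to 123 genes higher and 130 to 180 lower. List medians shrink with the base by construction. Read as base 2 they were 0.16 for bile duct, 0.15 for cytochromes P450, 0.11 for acute phase, 0.10 for matrix, 0.095 for lysosomal, 0.09 for bile acid, -0.047 for droplet, -0.069 for Kupffer cell, -0.0685 for interferon, -0.0755 for chemokine and -0.079 for ribosomal genes. As natural logarithms the same lists stood at 0.24, 0.22, 0.16, 0.15, 0.14, 0.13, -0.067, -0.10, -0.10, -0.11 and -0.11. With arrays scaled to a common spread, acute phase genes stood at 0.47, lysosomal at 0.41, cytochromes P450 at 0.41, bile acid at 0.23, interferon at -0.17, chemokine at -0.14 and ribosomal genes at -0.14. Centring by probe position, chosen after seeing the data, gave 0.28 for acute phase, 0.22 for bile acid, -0.19 for chemokine and -0.22 for ribosomal genes, and the 24 position groups had median differences from -0.31 to 0.13. Ribosomal genes stood at -0.31 with centred arrays. Matrix genes stood at 0.29 with the probe median and at 0.48 with concordant probes, which gave -0.28 for interferon genes. The cause of these shifts was not tested. Scaling moved some genes across 0, with Saa3 at 0.05, Lcn2 at 0.30, Lyz1 at 0.21, S100a8 at 0.30, S100a9 at 0.42, Cd68 at 0.04, Hmgb2 at 0.05, Abcg8 at 0.15 and Fasn at 0.024, and centring by probe position put Cat at 0.06 and Ccnd1 at -0.015. Some named genes close to the 2-fold limit were short of it under at least 1 setting, Abca1, Apob, Apoh, Col4a5, Cyp3a25, Fdps, Fga, H2-DMb1, Il1b, Itih3, Klrd1, Ly6d, Mmp8, Muc1 and Psma3, as was Clec7a, at -0.89 with scaled arrays. Others passed the limit under at least 1 setting, Acot2, Alb, Asah1, Cyp27a1, Elovl3, Ifi47, Lpl, Oas3, Plk1, Prom1, Scd1, Sparc and Tgfb2. With the probe median Col1a1 stood at -0.18 and Alb at -0.15, and with probes measured on all 4 arrays Mki67 at -0.62. The macrophage, neutrophil, stellate, cell cycle, proteasome, blood cell, adipose and pancreas, fetal liver, triglyceride and fatty acid oxidation lists had medians near 0 whose sign changed. No paired analysis was possible because each condition has 1 array, and for the same reason no replicate could be left out.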

Other observations

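Of 40 cell cycle genes none was 2-fold apart, and the median difference was 0.02. The mitotic kinase Plk1 was the lowest, at -0.51 at 6 weeks and -1.38 at 24 weeks, and the proliferation marker Mki67 had probes at -0.62 and 0.72 for the difference. The cyclin Ccnd1 was at -0.19 and -0.11, and the cell cycle inhibitor Cdkn1a at 0.22 and 0.57. Genes of glucose metabolism and insulin signalling had a median difference of 0.15, with 21 of 30 above 0. The glucose transporter Slc2a2 was at -0.38 and 0.38 and the glycogen phosphorylase Pygl at -0.60 and 0.07. Circadian clock genes had a median of 0.11 in 16 genes, with Per2 at -0.79 and 0.17. Chaperone and stress genes of the endoplasmic reticulum had a median of -0.03 in 25 genes, with Hspa5 at -1.11 and -0.31 and the mitochondrial Hspe1 at 0.50 and -0.26.

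Proteasome genes had a median of 0.02 in 33 genes. Psma3, at 1.44 and 0.39, was the 1 member 2-fold apart, against 1.8% of all genes. Lipoprotein and triglyceride genes had a median of 0.04 in 21 genes, and fetal liver and tumour-associated genes -0.05 in 18. The fetal liver list ran from -1.81 for Spink1 to 1.77 for Cd24a, with 1 gene at least 2-fold higher and 2 at least 2-fold lower. Blood cell markers had a median of -0.01 in 8 genes and adipose and pancreas markers 0.04 in 13, with none 2-fold apart in either list. The antioxidant genes Sod1, Sod2, Hmox1 and Nqo1 differed by 0.17, 0.34, -0.50 and -0.18.

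Odorant and vomeronasal receptor genes had a median difference of -0.05 in 878 genes, with 3 at least 2-fold higher and 8 at least 2-fold lower. Over all 13930 genes measured the counts were 101 (0.725%) and 150 (1.08%), so the receptor counts do not set this family apart. At least 2-fold above chow were 23 receptor genes at 6 weeks and 2 at 24 weeks, against 4.24% and 2.11% of all genes. Below chow the counts were 20 and 18, against 1.69% and 1.29%. The fall in the number above chow was thus also seen in this family, and its cause was not tested. The highest difference of all genes measured belonged to an odorant receptor gene, Olfr283, at 2.17 on 1 probe. That gene was picked out after its values were seen. Of 11145 probes that name no single gene here and had a value on both arrays, 77 were at least 2-fold higher and 96 at least 2-fold lower at 24 weeks, with differences between -1.89 and 2.23. The shares of all genes were 0.725% and 1.08%, but a gene's value is a mean over its probes, while these counts are of single probes.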
